A study of Homo sapiens with 4 samples.

Results

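The T cell receptor is built from a pair of variable chains, each ending in a constant region, and from the CD3 chains that carry the signal into the cell. The genes described here are the constant regions of the alpha, beta, gamma and delta receptor chains (TRAC, TRBC1, TRBC2, TRGC1, TRGC2 and TRDC) and the signalling chains CD3D, CD3E, CD3G and CD247. They were chosen by symbol, as the rows of the expression table whose Ensembl identifier carries 1 of these 10 names in GENCODE 29. Of the 28274 genes in the table, 9 were members. TRDC was not analysed here. The study compared 2 control libraries of the human cell line J-gammal with 2 libraries of the same line labelled as a knockdown of FYB1, an adaptor protein that links the receptor to integrin activation. The control titles carry the letters NC and their source name says that they received no treatment, while the knockdown titles carry the letters sh. The labels leave unsaid whether the controls held a construct of their own and whether 1 construct served both knockdown libraries, so effects of a construct and of lowered FYB1 cannot be told apart. Separate cultures within a group are not stated, so p-values measure only library-to-library spread, which may be technical.

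In an alpha-beta T cell the alpha and beta chains bind the ligand, and the CD3 delta, epsilon and gamma chains and the zeta chain, the product of CD247, hold the tyrosine motifs that are phosphorylated when it is bound. The chains assemble in the endoplasmic reticulum, and a receptor that lacks a chain reaches the surface poorly. The human beta locus has a pair of constant genes, TRBC1 downstream of the TRBJ1 joining segments and TRBC2 downstream of the TRBJ2 segments, and a rearranged beta gene uses 1 of them. The gamma locus likewise holds TRGC1 and TRGC2.

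TRBC1 and TRBC2 code for nearly the same protein, which limits how reads can be assigned to either gene. The first exon of each is 387 bases long and coding throughout, and the exons differ at 7 bases (98.2% identity). Over the whole transcripts, 23.5% of all 50-base windows of TRBC1, and 11.2% of all 100-base windows, occur unchanged in TRBC2. For TRGC1 the shares of windows that occur in TRGC2 are 16.1% and 8.32%. In the other direction, the shares of TRGC2 windows that occur in TRGC1 are 44.7% and 24.0%. Neither the read length nor the treatment of reads that match several places is stated, so the split within each pair is uncertain and the sum of each pair is given beside it.

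The 4 libraries held 16693113 to 20251864 reads, recovered from the table as whole numbers. Values are in FPKM, reads per kilobase of exon relative to a library total, so that on 1 kb of exon each FPKM stands for 16.6 to 20.5 reads. FYB1 itself read 17.6 and 20.1 FPKM in controls 1 and 2 against 6.18 and 4.53 FPKM in the knockdown pair, 0.285 of the control mean (adjusted p = 0.0398 by limma-trend). That call ended without knockdown library 1 or 2 (adjusted p = 0.203 and 0.0555) and with no filter on low values (adjusted p = 0.264), and it held by limma-voom in each alternative. All 8 T cell markers examined were above 1 FPKM in at least 1 library. Their summed level was 458 and 452 FPKM in the controls against 396 and 476 FPKM in the knockdown libraries, and LCK alone made up 276, 269, 229 and 291 FPKM of it. CD2, CD5, CD7 and ZAP70 were lower in both knockdown libraries than in both controls, CD28 and TCF7 were higher, and LCK and BCL11B overlapped. With 2 libraries a group, the groups did not overlap for 60.6% of all tested genes (34.6% lower, 26% higher). CD2 had 3.65 and 3.09 FPKM in controls 1 and 2 and 1.78 and 2.36 FPKM in the knockdown pair, and CD7 had 41.8 and 40.3 FPKM against 27.0 and 35.8 FPKM. CD5 had 19.8 and 19.4 FPKM against 15.7 and 18.4 FPKM, and ZAP70 had 67.0 and 67.6 FPKM against 54.2 and 66.5 FPKM. Among the B cell markers reported here 1 passed 1 FPKM, CD79A, at 24.5 and 21.2 FPKM in the controls against 11.1 and 15.8 FPKM in the knockdown libraries. MS4A1 and PAX5 were at 0.0386 FPKM or less in each library, and CD79B at 0.837 FPKM or less. The part of CD79A-expressing cells in the results was not tested. None of 5 myeloid and 4 natural killer cell markers passed 1 FPKM. The erythroid and megakaryocyte markers were not analysed here.

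With FYB1 lowered, transcripts of the beta constant genes and of CD3D fell by the second of the tests used, limma-voom on reads, while the main test, limma-trend, called no member. TRBC1 and TRBC2 together were at 0.454 of the control mean and CD3D at 0.583. TRAC and CD3G had slightly higher means. CD3E and CD247 had lower means, at 0.771 and 0.768 of control, and did not pass the threshold. No member passed either test in the upward direction.

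**Figure D1:**
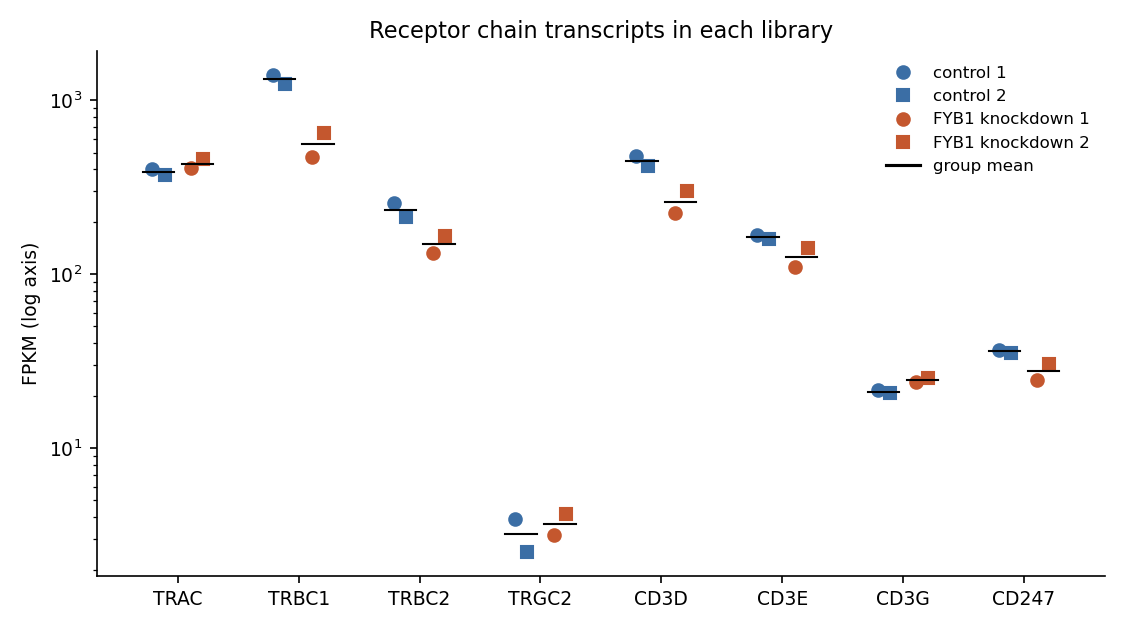
Level of each receptor chain in FPKM (log axis) in controls 1 and 2 (blue) and knockdown libraries 1 and 2 (orange), with the group mean as a bar; TRGC1, at 0 in both controls, is not drawn. The knockdown libraries lie below both controls for TRBC1, TRBC2, CD3D, CD3E and CD247 and above them for TRAC and CD3G.

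These differences were tested in 2 fits over the 13172 genes that averaged 1 FPKM or more, as 8 of the 9 members did. The main test, limma-trend on log2(FPKM + 1), called 0 of these 8 members at an adjusted p under 0.05, where 0.205% of all tested genes were called (23.4% at an unadjusted p under 0.05, and 4 of 8 members). The second test, limma-voom on the recovered reads, called 3 of the 8 members, all lower, where it called 7.74% of all tested genes, 5.8% lower and 1.94% higher. Libraries of the groups did not overlap for 5 members that were lower and 2 that were higher, and with only 2 libraries a group this holds for 60.6% of all tested genes (34.6% lower, 26% higher). The median log2 fold change was -0.38 over the 8 members and -0.03 over all tested genes, both on the log2(FPKM + 1) scale. The members' median was -0.08 under quantile normalization, -0.24 with totals taken as summed reads, -0.22 without knockdown library 1 and -0.54 without knockdown library 2. On that scale the change of a gene with low values comes out too small.

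**Figure D2:**
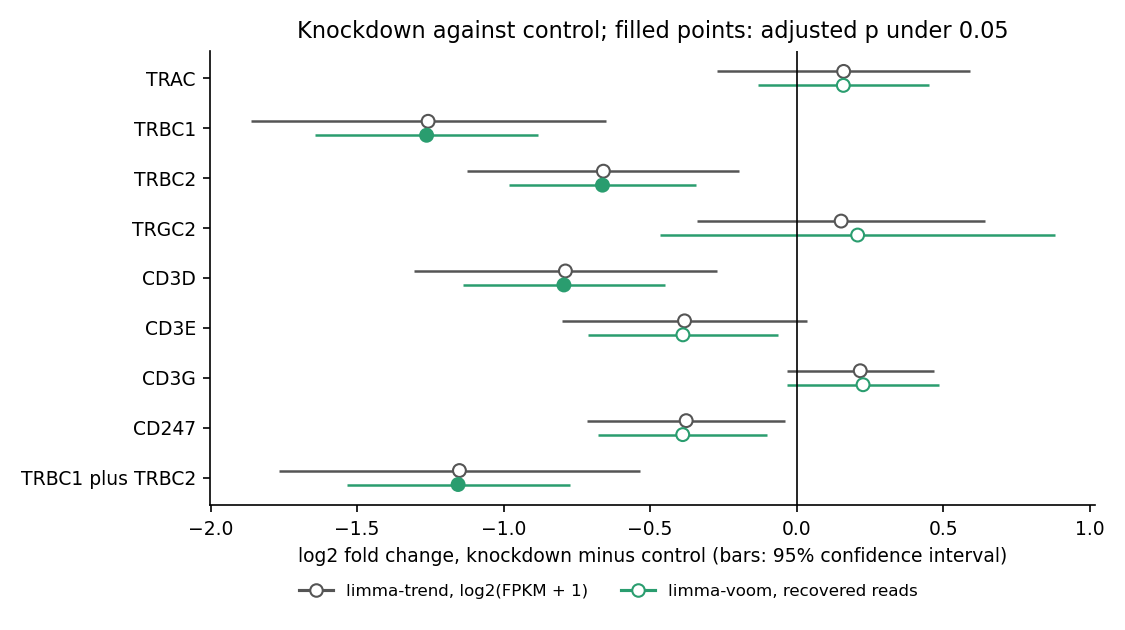
Log2 fold change, knockdown minus control, of 8 members and of the summed beta constant genes, by limma-trend (grey) and limma-voom (green), with 95% confidence intervals as bars and filled points for an adjusted p under 0.05. The filled points are TRBC1, TRBC2, their sum and CD3D by limma-voom, and no limma-trend point is filled.

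Among the receptor chains, TRBC1 (ENSG00000211751, chromosome 7, 142791694 to 142793368, plus strand, hg38), a constant region of the beta chain, was the most abundant member. Controls 1 and 2 had 1404 and 1237 FPKM (17761 and 15784 reads), and knockdown libraries 1 and 2 had 469 and 647 FPKM (6565 and 10069 reads). Both knockdown libraries were far below both controls, and knockdown library 1 was the lowest. The mean went from 1320.4 ± 118 to 558 ± 126 FPKM (SD, n = 2 each), 0.422 of the control mean. In controls TRBC1 ranked 25 among all genes of the table by mean FPKM. The log2 fold change was -1.26 ± 0.17 (SE) by limma-voom with an adjusted p of 0.00428, and -1.26 ± 0.24 by limma-trend with an adjusted p of 0.107. Of the 13172 tested genes, 34 had a lower limma-trend fold change.

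TRBC2 (ENSG00000211772, chromosome 7, 142801041 to 142802748, plus strand), 7.67 kb downstream of TRBC1, had 256 and 214 FPKM in the controls (3234 and 2725 reads) against 132 and 166 FPKM in the knockdown libraries (1841 and 2579 reads). It was lower in both knockdown libraries than in either control, by less than TRBC1. The limma-voom log2 fold change was -0.66 ± 0.14 with an adjusted p of 0.0277, and limma-trend gave an adjusted p of 0.149. The call of TRBC2 is the less firm of the pair. It ended without control 1 (limma-voom adjusted p = 0.318) and without knockdown library 1 (limma-voom adjusted p = 0.103), with totals taken as summed reads, under quantile normalization and with no filter on low values.

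Because reads can move between these copies, their reads were also summed. The summed level was 1661 and 1453 FPKM in the controls against 601 and 814 FPKM in the knockdown libraries, per mean exon length of the pair. The sum fell with a limma-voom log2 fold change of -1.16 ± 0.17 and an adjusted p of 0.00632, and limma-trend gave -1.15 ± 0.25 with an adjusted p of 0.119. The sum does not depend on which of the pair a read was assigned to, but reads dropped for matching both would be missing from it.

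The balance between the beta genes also differed between groups. TRBC1 held 84.6% (95% interval 84.1% to 85.1%) and 85.3% (84.8% to 85.8%) of the TRBC reads in controls 1 and 2, by exact Clopper-Pearson intervals that cover counting error only. It held 78.1% (77.2% to 79.0%) and 79.6% (78.9% to 80.3%) in knockdown libraries 1 and 2. The groups did not overlap, and the mean share fell by 6.08 percentage points in the knockdown libraries. With 1 library left out, the share fell by 5.33 points at the least and fell by 6.84 points at the most. An exact two-sided permutation test gave p = 0.333, the smallest value that 2 libraries against 2 can give. Among the joining segments of the locus the share of the first cluster was also lower. TRBJ1 segments held 82.7% and 83.5% of the reads on TRBJ segments in the controls against 75.9% and 75.3% in the knockdown libraries, from 939, 936, 788 and 872 TRBJ1 reads and 197, 185, 250 and 286 TRBJ2 reads. The TRBJ2 reads were thus higher in both knockdown libraries than in both controls, whereas the TRBC2 reads were lower in both. The TRBJ1 reads fell by a smaller part than the TRBC1 reads, which went from 17761 and 15784 to 6565 and 10069. TRBJ1 thus fell less than TRBC1, and TRBJ2 did not fall. These are reads of libraries of unequal depth, not scaled to a total. The totals behind the FPKM values were 16648943 and 16789004 in the controls against 18436617 and 20480491 in the knockdown libraries. Scaling by them would make the fall of TRBJ1 larger than its reads show.

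TRAC (ENSG00000277734, chromosome 14, 22547506 to 22552154, plus strand), the constant region of the alpha chain that pairs with these beta chains, stood at 400 and 373 FPKM in the controls and at 406 and 459 FPKM in the knockdown libraries. Both knockdown libraries were above both controls, knockdown library 1 only narrowly. The limma-voom log2 fold change was 0.16 with a 95% interval of -0.13 to 0.45 (adjusted p = 0.459), so a small fall and a moderate rise both lie inside the interval. Leaving out knockdown library 1 gave 0.25, and leaving out knockdown library 2 gave 0.07. Under quantile normalization the limma-trend value was 0.59 (adjusted p = 0.0681), against 0.16 in the main fit. The ratio of summed TRBC to TRAC within a library needs no library total. It was 4.16 and 3.90 in the controls against 1.48 and 1.77 in the knockdown libraries, 0.404 of the control mean (exact two-sided permutation p = 0.333, the smallest possible).

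The gamma chain genes had the fewest reads of the members, and TRGC1 was near the detection limit. TRGC2 (ENSG00000227191, chromosome 7, 38239580 to 38249572, minus strand) had 66 and 43 reads in the controls (3.91 and 2.53 FPKM) and 59 and 86 in the knockdown libraries (3.16 and 4.15 FPKM). The groups overlapped, and the limma-voom log2 fold change of 0.21 had a 95% interval from -0.46 to 0.88. TRGC1 (ENSG00000211689, chromosome 7, 38257879 to 38265678, minus strand) had 0 reads in both controls and 2 in each knockdown library, under the 3 reads per library that a count of 0 allows, so no fold change is given. It was the member that did not reach the filter. The summed gamma genes had 66 and 43 reads in the controls against 61 and 88 in the knockdown pair (limma-voom log2 fold change 0.25 ± 0.31, adjusted p = 0.619), and the sign turned without control 2 (-0.07).

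Of the CD3 chains, CD3D, CD3E and CD3G lie together on chromosome 11. CD3D (ENSG00000167286, 118338954 to 118342744, minus strand), the delta chain, had 478 and 419 FPKM in the controls (7400 and 6539 reads) against 224 and 299 FPKM in the knockdown libraries (3832 and 5694 reads). The groups were well apart, with knockdown library 1 again the lowest. CD3D fell by limma-voom, with a log2 fold change of -0.79 ± 0.16 and an adjusted p of 0.0200, while limma-trend gave -0.79 ± 0.21 and an adjusted p of 0.141. The limma-voom call ended without knockdown library 1 (adjusted p = 0.0703), without control 1 (adjusted p = 0.168) and with no filter on low values (adjusted p = 0.0531).

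CD3G (ENSG00000160654, 118344344 to 118355161, plus strand), the gamma chain of CD3, starts 1600 bases from the start of CD3D and is read in the opposite direction. It was at 21.5 and 20.6 FPKM in the controls and at 24.1 and 25.2 FPKM in the knockdown libraries. Both knockdown libraries were above both controls, and the limma-voom log2 fold change of 0.23 (95% interval -0.03 to 0.48) had an adjusted p of 0.231. The ratio of CD3D to CD3G went from 22.2 and 20.4 in the controls to 9.29 and 11.9 in the knockdown libraries, 0.497 of the control mean (exact two-sided permutation p = 0.333, the smallest possible). The ratio is taken within a library, so it does not depend on the library totals.

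CD3E (ENSG00000198851, 118304545 to 118316175, plus strand), the epsilon chain that pairs with both delta and gamma, was at 167 and 159 FPKM in the controls and at 110 and 141 FPKM in the knockdown libraries. CD247 (ENSG00000198821, chromosome 1, 167430640 to 167518610, minus strand), the zeta chain, was at 36.8 and 35.2 FPKM in the controls and at 24.7 and 30.5 FPKM in the knockdown libraries. In each gene both knockdown libraries were below both controls. The log2 fold changes were -0.39 ± 0.15 for CD3E and -0.39 ± 0.13 for CD247 by limma-voom (adjusted p = 0.115 and 0.0869). Without knockdown library 2 these limma-voom log2 fold changes were -0.56 and -0.54, and without knockdown library 1 they were -0.21 and -0.24. CD247 per CD3E was nearly constant, at 0.220 and 0.222 in the controls against 0.224 and 0.217 in the knockdown libraries.

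**Figure D3:**
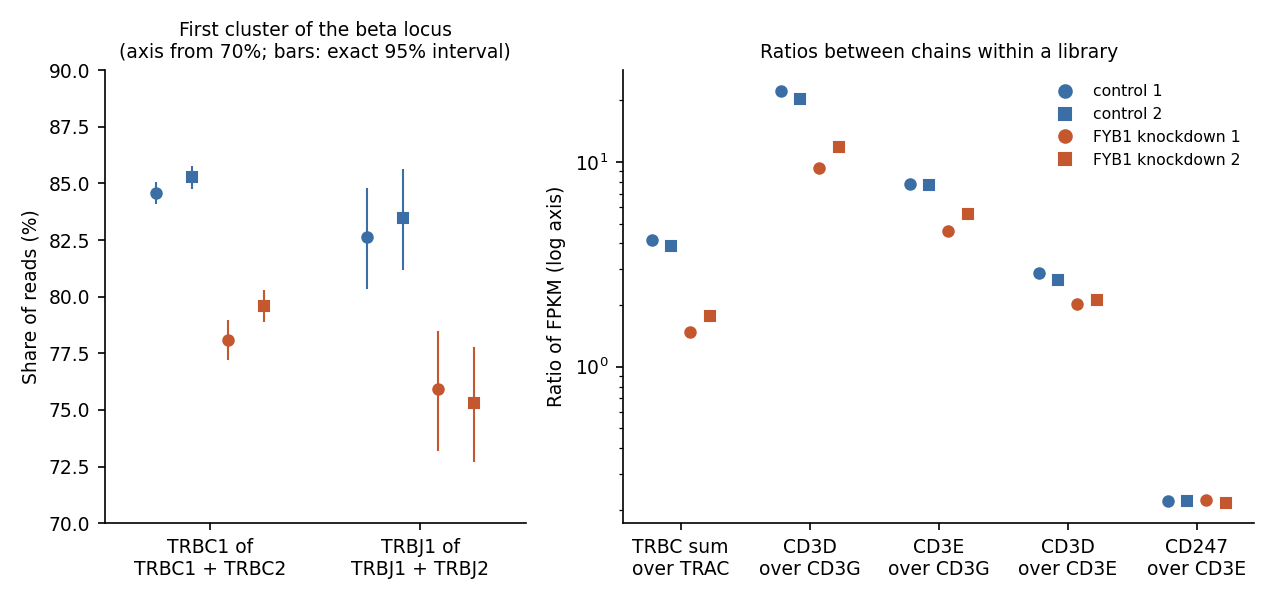
Left, share of reads (%) held by TRBC1 among TRBC reads and by TRBJ1 among TRBJ reads per library, with exact 95% binomial intervals and an axis that starts at 70%, and right, ratios of FPKM between chains in each library on a log axis. Shares and the ratios of TRBC to TRAC and of CD3D or CD3E to CD3G are lower in both knockdown libraries (orange) than in both controls (blue), and CD247 over CD3E is between 0.217 and 0.224 in each library.

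Per length, the order of levels in the controls was TRBC1, CD3D, TRAC, TRBC2, CD3E, CD247, CD3G, TRGC2 and TRGC1, and each neighbouring pair was apart by its 2 libraries. In the knockdown libraries TRAC stood above CD3D, and the ranges overlapped between TRBC2 and CD3E and between CD247 and CD3G. In each of the 8 tested members control 1 was above control 2 and knockdown library 2 above knockdown library 1. FYB1 was lowest in knockdown library 2, while the members that fell were lowest in knockdown library 1. The members took 0.265% and 0.247% of all reads in the controls against 0.173% and 0.199% in the knockdown libraries. In bulk RNA a smaller number of cells with a transcript and less of it in each cell cannot be told apart.

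Library scaling and gene length bear on these values. The authors' totals in controls 1 and 2, 16648943 and 16789004, were below the summed reads, 17597678 and 17216663. In knockdown libraries 1 and 2 the totals, 18436617 and 20480491, were above the summed reads, 16693113 and 20251864. When summed reads replaced the authors' totals, the median of all genes moved from -0.04 to 0.09 by limma-voom. TRBC1 was then at -1.12, CD3D at -0.65, CD3E and CD247 at -0.25, TRAC at 0.30 and CD3G at 0.36. Across the 13172 tested genes the limma-trend fold change had a Spearman correlation of 0.22 with exon length, given as a description. The exon lengths were 760 bases for TRBC1, 758 for TRBC2, 929 for CD3D, 976 for TRAC, 2844 for CD3E, 3836 for CD3G and 4034 for CD247. After correction for exon length and GC content, TRBC1 was at -1.15, TRBC2 at -0.57 and CD3D at -0.72 by limma-voom. All 3 were still called by limma-voom (adjusted p = 0.00123, 0.0122 and 0.00754), where the corrected fit called 1764 of the 13172 tested genes. CD3E was then at -0.28, CD247 at -0.24, TRAC at 0.22 and CD3G at 0.24, without a call. TRBC1 was called by limma-voom under each of its 11 alternatives, with a log2 fold change between -1.49 and -1.03.

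**Figure D4:**
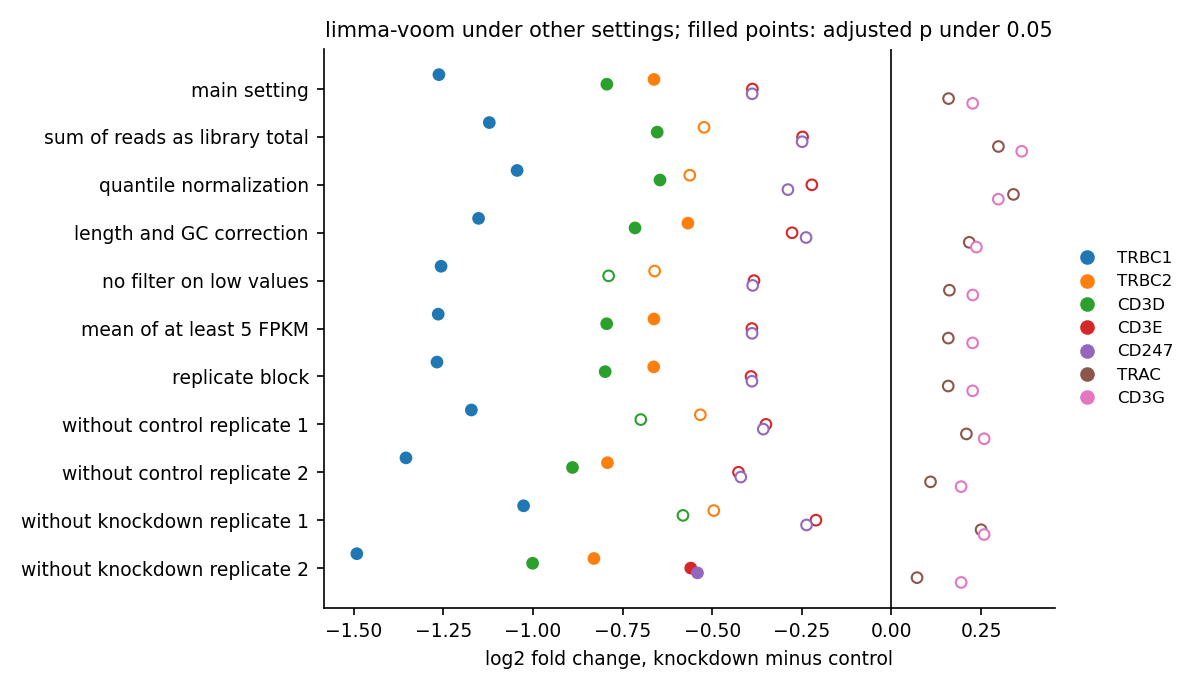
Log2 fold change of 7 members by limma-voom in the main setting and under 10 alternatives, with filled points for an adjusted p under 0.05. TRBC1 is filled in each row, TRBC2 and CD3D lose their call in some rows, and TRAC and CD3G stay above 0 in each row without a call. CD3E and CD247 are filled only without knockdown library 2.

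The upstream sequence was available for 2 members, CD3D and CD247, in the RefSeq promoter table (GRCh38.p14). Both are printed 5′ to 3′ on the strand of the gene, up to the base before the most upstream annotated start in GENCODE 29, because both genes had lower means while CD3D alone passed the test. CD3D covers chr11:118342745-118342955 and CD247 covers chr1:167518611-167518779, both on the minus strand. Capitals mark matches on either strand to the words searched.
CD3D: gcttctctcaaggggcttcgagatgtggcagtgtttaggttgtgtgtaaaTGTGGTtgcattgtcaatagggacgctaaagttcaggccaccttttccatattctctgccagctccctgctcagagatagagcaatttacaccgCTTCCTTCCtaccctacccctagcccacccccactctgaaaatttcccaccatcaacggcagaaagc
CD247: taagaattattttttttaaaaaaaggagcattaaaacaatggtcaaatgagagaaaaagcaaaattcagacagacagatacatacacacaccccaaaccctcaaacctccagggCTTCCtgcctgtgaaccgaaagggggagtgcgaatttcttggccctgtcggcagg
The words were GGAAG for ETS factors, TGTGGT for RUNX factors, CAGCTG for E proteins, CTTTGA for TCF and LEF factors, AGATAA for GATA factors and TATAAA for a TATA box. CD3D held GGAAG at 2 places that share 1 base, and TGTGGT once. CD247 held GGAAG once. Windows of the same length hold GGAAG in 57.7% (for CD3D) and 49.4% (for CD247) of the 35116 promoters of the table, and TGTGGT in 9.44% (for CD3D). A match describes the letters only.

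Genes that lie beside the members did not share 1 direction. Within 200 kb of TRBC1 a single tested coding gene was found, EPHB6, a kinase-inactive Eph receptor, at 36.5 ± 0.18 FPKM in controls against 35.9 ± 2.96 FPKM in knockdown libraries (SD, n = 2 each). Near CD3D, 2 of 5 tested coding neighbours had lower means. Of all 13172 tested genes, 7151 had lower means on the log2(FPKM + 1) scale, and limma-voom called 7.74%. That count of lower genes also stands beside those of the gene lists below. MPZL3, a membrane protein with an immunoglobulin domain, rose by limma-voom from 1.87 to 3.18 FPKM (adjusted p = 0.0345), and UBE4A, a ubiquitin ligase next to CD3G, went from 8.78 to 12.5 FPKM (limma-voom adjusted p = 0.0519). ATP5MG, a subunit of ATP synthase, went from 9.40 to 8.12 FPKM (limma-voom adjusted p = 0.400). Near TRAC, DAD1, a subunit of the oligosaccharyltransferase, went from 147 to 124 FPKM on average (adjusted p = 0.260 by limma-voom), and ABHD4, a lipase, fell by limma-voom from 16.7 to 11.5 FPKM (adjusted p = 0.0339). STARD3NL, a late endosome protein beside the gamma genes, went from 24.3 to 19.0 FPKM (limma-voom adjusted p = 0.104). Around CD247, POU2F1 averaged 3.66 FPKM in controls against 4.90 FPKM, CREG1 16.9 against 13.8 FPKM and RCSD1 44.7 against 40.3 FPKM, with no call by limma-voom.

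The receptor signals through kinases and adaptors. Of 21 tested genes of proximal signalling, 6 had lower and 15 higher means (median log2 fold change 0.12 by limma-trend), and limma-voom called 1 lower, FYB1 itself, and 1 higher, beside 7.74% of all tested genes. Limma-trend called FYB1 alone. The gene that rose was PTPN22, a phosphatase that restrains receptor signalling, from 5.21 ± 0.29 to 7.47 ± 0.66 FPKM (SD, n = 2 each; limma-voom adjusted p = 0.0483). LCK, the kinase that phosphorylates the CD3 chains, stood at 276 and 269 FPKM in the controls against 229 and 291 FPKM in the knockdown libraries, and the groups overlapped.

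Coreceptors and other surface proteins near the receptor went both ways, with 10 of 17 tested genes lower (median -0.19) and 2 lower and 1 higher by limma-voom. CD99, a surface glycoprotein of T cells, fell to 53.3 ± 12.1 FPKM from 85.9 ± 4.31 (SD, n = 2; limma-voom adjusted p = 0.0297). CD1A, which presents lipids on thymocytes, had 11.1 and 10.4 FPKM in the controls against 6.16 and 6.66 FPKM (adjusted p = 0.0214 by limma-voom). CD28, which provides costimulation, had 6.05 and 5.80 FPKM in the controls and rose to 11.4 and 9.60 FPKM (adjusted p = 0.0121 by limma-voom). These are 3 of 17, beside 7.74% of all tested genes. Limma-trend called 0, and 7 at an unadjusted p under 0.05, where 23.4% of all tested genes passed unadjusted.

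Receptor chains that fail to assemble are degraded, and surface receptors are removed with the help of adaptors and ubiquitin ligases. Of 22 tested genes of turnover and degradation, 15 had lower means (median -0.05). Limma-voom called 3, all lower, beside 5.8% of all tested genes. Limma-trend called 0, and 7 at an unadjusted p under 0.05, beside 23.4% of all tested genes. SLA, an adaptor that promotes loss of the receptor from the cell surface, fell from 49.9 and 47.5 FPKM in the controls to 30.5 and 31.2 FPKM in the knockdown libraries (limma-voom adjusted p = 0.0168). VCP, the ATPase that extracts proteins for degradation, averaged 75.6 FPKM in controls against 54.2 FPKM (adjusted p = 0.0490 by limma-voom). STUB1, a chaperone-linked ubiquitin ligase, averaged 28.4 against 17.2 FPKM (adjusted p = 0.0304 by limma-voom).

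Genes for folding and glycosylation of new chains in the endoplasmic reticulum had lower means for 19 of 21 tested genes (median -0.46). Limma-voom called 9, all lower, where 5.8% of all tested genes were called lower. Limma-trend called 1, and 13 at an unadjusted p under 0.05, where 23.4% of all tested genes passed unadjusted. The list was chosen with earlier results of these data known, so its counts are a description and not independent support. CALR, the chaperone calreticulin, stood at 708 and 674 FPKM in the controls against 273 and 339 FPKM in the knockdown libraries (limma-voom adjusted p = 0.00428). HSPA5, an abundant chaperone of the HSP70 family, had 136 and 119 FPKM in the controls against 63.3 and 69.5 FPKM (adjusted p = 0.0049 by limma-voom). RPN2, which takes part in N-glycosylation, had 85.6 and 84.3 FPKM against 30.0 and 33.3 FPKM, and limma-trend called it as well (adjusted p = 0.0398). These values stand beside the fall of the beta constant and CD3D transcripts, and a relation between them was not tested.

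Transcription factors and recombination enzymes of the receptor loci had 8 lower and 12 higher means among 20 tested genes (median 0.08). Limma-voom called 1, beside 7.74% of all tested genes. Limma-trend called 0, and 5 at an unadjusted p under 0.05, near the 23.4% of all tested genes. IKZF3, the Ikaros family factor Aiolos, rose from 1.29 and 1.46 FPKM in the controls to 3.11 and 2.78 FPKM in the knockdown libraries (limma-voom adjusted p = 0.0049). TCF7, a factor of T cell development, was at 20.6 and 20.7 FPKM in the controls against 27.9 and 26.2 FPKM in the knockdown libraries, and BCL11B, a factor of T lineage commitment, at 22.9 and 26.4 and at 28.9 and 25.3 FPKM. Neither was called by limma-voom, and both are named here as T cell markers.

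The coding genes most like the members in pattern were found by the Euclidean distance over the 4 libraries between log2(FPKM + 1) values centred on the control mean, among the 7202 coding genes that averaged 5 FPKM or more. For TRBC1 those reported here are TMED9 and RAB20, at distances of 0.07 and 0.12. TMED9, a cargo receptor of early secretion, stood at 46.0 and 41.4 FPKM in the controls against 15.3 and 20.1 FPKM in the knockdown libraries. For CD3D they were PSMB5, RPS2 and RAC3, at distances of 0.03, 0.06 and 0.06. PSMB5, a catalytic subunit of the proteasome, stood at 71.2 and 60.8 FPKM in the controls against 32.9 and 43.2 FPKM in the knockdown libraries. With 4 libraries many genes can lie this close, and these distances are a description.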

How the data were processed

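RNA of 2 control and 2 FYB1 knockdown libraries of J-gammal cells was isolated with Trizol and made into TruSeq libraries, per the labels' protocols. Reads were aligned with HISAT2 2.0.5 to hg38, per the submitters' processing notes. No counting program, annotation or strand setting is stated (not given in the sources used here). The deposited table holds 1 FPKM value per gene and library, as the authors scaled it. Its header names no unit: multiplied by merged exon length (GENCODE 29), 100% of values came out as whole steps of their library (tolerance 0.001), which identified FPKM and gave whole reads. All 28274 identifiers matched GENCODE 29.

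Limma-trend (limma 3.58.1, R 4.3.3) was the main test, run on log2(FPKM + 1), pseudocount 1, over genes averaging 1 FPKM or more. The second was limma-voom on recovered reads with the authors' totals. Benjamini-Hochberg adjustment ran over all tested genes, with a threshold of 0.05. The scripts were tested on simulated data. Pair sums entered as added genes of the same fits. Named genes are the members, FYB1 and, per list, up to 3 members past the limma-voom threshold with the highest mean, or else 2 with the highest mean, with neighbours, cell type markers and like genes by fixed rules; LCK, TCF7, BCL11B and CD79A are named as markers. Some items of these lists and some sequences are not reported here. The members and lists were chosen with earlier results of these data known. Intervals of shares are exact at 95% and cover counting error only, since reads are not independent molecules.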

Additional observations from a re-analysis of the deposited data

How the results depend on the processing

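TRBC1, TRBC2, CD3D, CD3E and CD247 had lower means, and TRAC and CD3G higher means, under all 13 limma-trend and 11 limma-voom alternatives. Of the alternatives of single members, 170 kept the direction and the side of the threshold, 9 gained a call, 8 lost one and 3 turned sign, all 3 of TRGC2. This tally includes the crossed replicate block, which was chosen after seeing the data. That block gave the gained calls of CD3D and TRBC2 and 1 of those of TRBC1 by limma-trend. It also gave 1 gained call each of CD3E and CD247 by limma-voom. Their other gained call came without knockdown library 2, a fit that leaves 1 knockdown library. With 1 library left out TRGC2 ranged from -0.0870 to 0.39 by limma-trend and from -0.11 to 0.52 by limma-voom, and it was -0.0016 by limma-trend without knockdown library 2. Limma-trend called 27 genes over the whole table, 45 under quantile normalization, 76 with totals taken as summed reads, 0 with no filter on low values (3938 at an unadjusted p under 0.05), 181 with a mean of at least 5 FPKM, 190 after the length and GC correction and 0 to 406 with 1 library left out. Its 0 called members became 1, TRBC1, under quantile normalization (log2 fold change -0.85, adjusted p = 0.0285) and with a mean of at least 5 FPKM (adjusted p = 0.0453). Quantile normalization also moved CD3D to -0.34, TRBC2 to -0.25, CD247 to -0.16, CD3E to -0.01 and TRAC to 0.59 by limma-trend. The summed beta genes passed limma-trend under quantile normalization (-0.83, adjusted p = 0.0256). Limma-voom called 1019 genes, 513 under quantile normalization, 461 with summed reads, 123 with no filter, 1764 after the length and GC correction and 102 to 3877 with 1 library left out. Its 3 called members became 1 with no filter and 1 to 5 with 1 library left out. It called 102 genes without knockdown library 1, 136 without control 1 and 496 without control 2. The summed gamma genes lay between -0.0460 and 0.35 by limma-trend and between -0.0662 and 0.56 by limma-voom with 1 library left out. A library left alone in its group was assumed to vary like the other group. The cause of these shifts was not tested.

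With the replicate block limma-trend called 781 genes and 0 members and limma-voom 1072 genes and 3 members. The numbers share no stated origin, and deviations of same-numbered libraries had a correlation of -0.21. With the crossed replicate block, chosen after seeing the data, limma-trend called 1910 genes and 3 members and limma-voom 4007 genes and 5 members, and the summed beta genes passed limma-trend (-1.15). The 0 reads of TRGC1 in the controls and the 43 to 86 reads of TRGC2 limit what can be seen of the gamma chains.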
